A study of Volvox carteri with 4 samples.

Results

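The genes described here encode parts of the basal body and of the transition zone, the base on which a flagellum is built, and were compared between the flagella-less germ cells and the flagellated somatic cells of *Volvox carteri*. Members were the loci that the study's list of flagella-related genes places in its core basal body, BUG, POC or transition zone (TZ) groups, without the 5 loci that the same list also places among axoneme, intraflagellar transport (IFT) or Bardet-Biedl syndrome (BBS) genes. This left 81 of the 16008 gene models, of which 25 were core basal body genes, 32 BUG genes, 20 POC genes and 12 TZ genes. Of these, 8 loci stood in more than 1 group and were counted in each. The list assigns genes by orthology to the unicellular relative *Chlamydomonas reinhardtii*.

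RNA came from 2 preparations of gonidia and 2 of somatic cells of the strain Eve, each cell-type from cultures of its own. The life cycle takes 48 hr, and adults that had hatched were collected at hour 42, when the second light period had run for 6 hr and gonidia had not yet begun to divide. The cell-types were separated by density centrifugation, and each preparation pooled many spheroids. Read counts from such bulk samples are shares of a library and do not give the amount of RNA per cell. The 4 libraries held between 10838222 and 13104583 counted reads. The somatic regulator *regA* (Vocar.0021s0042) had 1 and 0 reads in gonidia, compared with 486 and 786 in somatic cells. Of the 19 loci of earlier gonidial cDNA clones 9 were gonidial and 2 somatic, which is near the 46.7% of all tested genes that were gonidial and does not check the labels. Summed over the 120 axoneme, IFT and BBS loci, normalized counts were 30590 and 30100 in gonidia, compared with 510500 and 545500 in somatic cells, in the same direction as the labels.

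A basal body is a short barrel of microtubules that is identical in structure to a centriole. It anchors and templates the flagellum in a cell that swims and helps to place the spindle and the cleavage furrow in a cell that divides. The TZ lies just above it and forms a gate of membrane and linker proteins at the base of the flagellum. The comparison asks in which cell-type the genes for each part of this organelle are more highly expressed. The core group holds proteins that the list assigns to the basal body or centriole. BUG genes (for upregulated during flagellar assembly) and POC genes (for proteome of the centriole) are candidates from proteomic surveys of *C. reinhardtii* basal bodies.

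Of the 81 members, 78 passed the filter on low counts and entered the edgeR quasi-likelihood fit of 13350 genes. A gene counts as gonidial or somatic where the change reached 2-fold and its adjusted p-value lay under 0.05. Such genes are termed specific above 5-fold and biased otherwise, and genes with a smaller change than 2-fold are termed constitutive. The class names are those of the study, which used DESeq2 and called fewer genes gonidial and fewer somatic. Calls were common in this comparison, since 46.7% of all tested genes were gonidial and 26.0% were somatic. Against this background, 17 members (21.8%) were gonidial, 38 (48.7%) were somatic and 23 were constitutive. The somatic values exceeded both gonidial values for 43 members, fell short of both for 24 and overlapped them for 11, whereas values did not overlap for 90.6% of all tested genes. Log2 fold changes are somatic over gonidia throughout, so that negative values mean more reads in gonidia, and SE is the standard error of that value. For 2 libraries against 2, the smallest p of an exact permutation test is 0.333, so that every adjusted p-value rests on the spread that the model shares across genes.

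The 4 groups differed in how they were distributed between cell-types. In the BUG group 26 of 32 tested members (81.2%) were somatic, which is well above the 26.0% of all tested genes and close to the 116 of 120 (96.7%) of the axoneme, IFT and BBS loci. The core group held 10 gonidial (43.5%), 8 somatic (34.8%) and 5 constitutive genes among 23 tested. The POC group held 6 gonidial (30.0%), 4 somatic and 10 constitutive genes among 20 tested. In the TZ group 2 of 11 tested genes (18.2%) were gonidial, 3 (27.3%) somatic and 6 constitutive. Among all 13350 tested genes 3458 were constitutive, a smaller share than in the POC and TZ groups. For the core, POC and TZ groups these shares of called genes lie near or below the background of 46.7% gonidial and 26.0% somatic genes, apart from the somatic share of the core group.

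**Figure D1:**
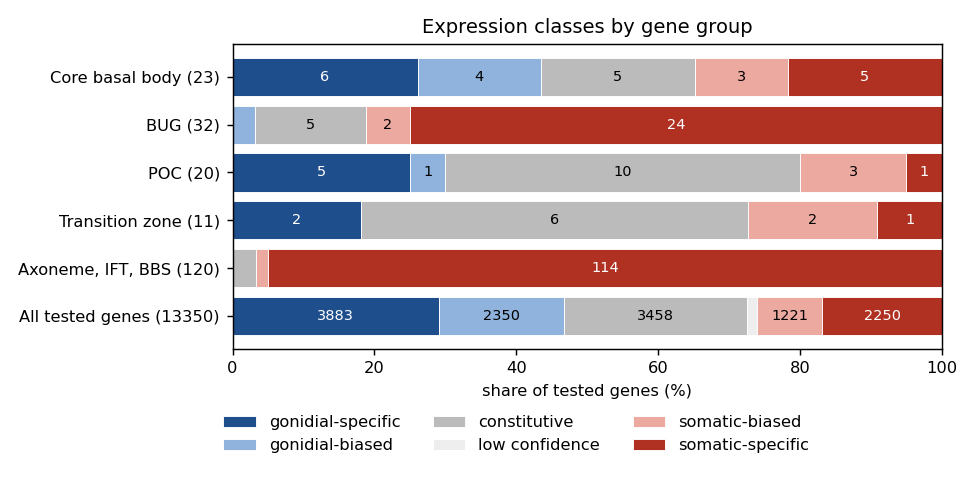
Share of tested genes (horizontal axis, in percent) in each expression class for the 4 groups, for the axoneme, IFT and BBS loci and for all tested genes, with gene numbers in the bars and the number tested in parentheses. BUG genes were mostly somatic-specific (24 of 32), while the other groups held 10 gonidial and 8 somatic (core), 6 and 4 (POC) and 2 and 3 (TZ) genes.

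The median log2 fold change was 5.77 in the BUG group, -0.84 in the core group, -0.08 in the POC group and -0.14 in the TZ group, against 5.89 for the axoneme, IFT and BBS loci and -0.85 for all tested genes. Taking 1 gonidial and 1 somatic library at a time, the group medians ranged from 5.57 to 5.93 (BUG), from -0.89 to -0.42 (core), from -0.14 to -0.02 (POC) and from -0.90 to 0.25 (TZ). The zero point of these values moves with the scaling. All tested genes had a median of -0.26 under TMM normalization (shifted by 0.59) and of -0.14 under DESeq2's size factors (shifted by 0.71). Relative to the median of all tested genes, the medians were 6.62 (BUG), 0.01 (core), 0.78 (POC) and 0.71 (TZ). They stayed between 6.47 and 6.63, -0.01 and 0.42, 0.69 and 1.02, and 0.36 and 0.90 when the fit was repeated. The repeats used another scaling, test or filter, a replicate term, or 1 library less. Another scaling shifts all genes nearly alike, and another test leaves the fold changes nearly as they were. Mainly the filters, the replicate term and the left-out libraries could therefore move these relative medians. These ranges do not cover each locus counted once, where the BUG median was 5.82 before subtraction. Nor do they cover the loci set aside being kept in. In the repeated fits the BUG, POC and TZ medians stayed above that of all tested genes. The displacement on the log2 scale was at least 6.47 for BUG, and at most 1.02 for POC and 0.90 for TZ.

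**Figure D2:**
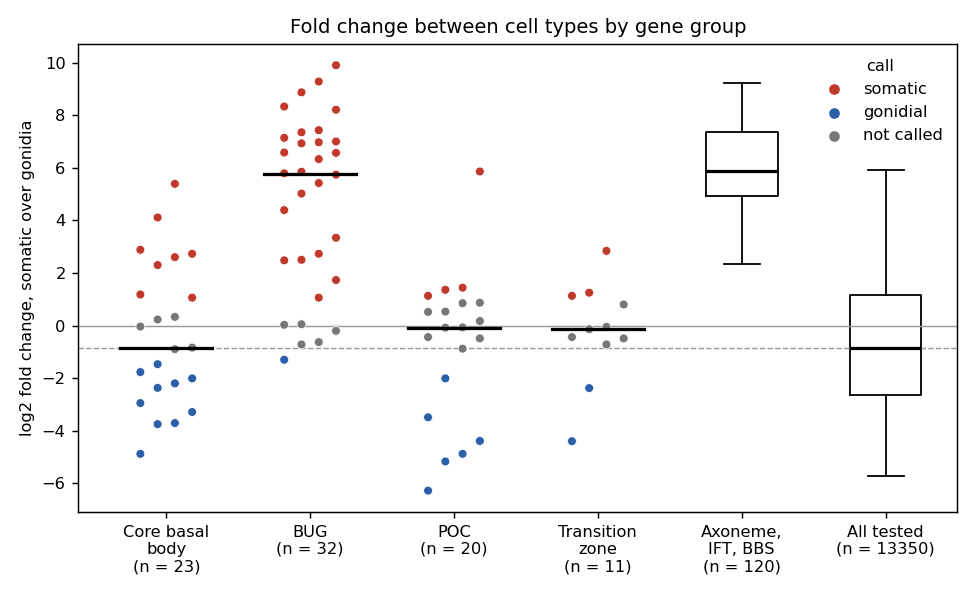
Log2 fold change, somatic over gonidia (vertical axis), of each tested member by group, coloured by call, with the group median as a black bar. Boxes give the quartiles and 5th to 95th percentiles of the comparison sets, the dashed line is the median of all tested genes (-0.85), and the lowest POC point is POC4, which had no somatic read, so that its position depends on the count added in the fit.

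The depth behind these values differed greatly between groups. The median of the reads summed over the 4 libraries was 6416 for BUG genes, 217.5 for POC genes, 169 for core genes and 51 for TZ genes, whereas it was 291 for all gene models. These reads are not divided by gene length and therefore describe precision and not relative expression. A library in which no read is seen may still hold 3, which correspond to 3.08 to 3.96 normalized counts (counts scaled to a library size of 10 M), and changes in many core, POC and TZ genes could be measured only to within a wide margin. Between the somatic libraries 4 of 11 TZ genes (36.4%) and 4 of 23 core genes (17.4%) differed by more than 2-fold, but 0 of 32 BUG genes and 15.4% of all tested genes. Between the gonidial libraries the corresponding shares were 9.09%, 13.0%, 3.12% and 6.49%.

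Among core genes, 9 were grouped under centriole assembly, namely SAS6, BLD10, POC1, POC5, CRC70, ASQ2, CEP76 and the delta and epsilon tubulin genes. Of these, 8 were gonidial, where 46.7% of all tested genes were, and CEP76 was constitutive, with a median log2 fold change of -2.95. This grouping was made with results of these data known and leaves out VFL3, which also has a role in centriole assembly and was somatic-specific at 2.88, and the call of POC5 rested on 1 library. SAS6 (Vocar.0006s0339), the protein of the cartwheel that sets the symmetry of a new centriole, had 21 and 17 reads in gonidia, compared with 3 and 0 in somatic cells. The 4 values did not overlap and the log2 fold change was -3.71 (SE 0.97, adjusted p = 0.000175). The ratio of the summed reads, scaled by the summed library sizes, was 14.2, with a 95% interval of 4.52 to 72.1. This interval and those that follow (exact binomial, on reads summed over the libraries of a cell-type) take in the error of counting alone. They leave out the variation between preparations, and PCR copies of 1 molecule were not told apart.

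BLD10 (Vocar.0016s0003), which forms the tips of the cartwheel spokes and is needed for basal bodies to form in *C. reinhardtii*, had 17 and 10 reads in gonidia, compared with 1 and 1 in somatic cells. It was 15.2-fold higher in gonidia (3.81 to 132) and gonidial-specific (log2 fold change -3.75, SE 1.05, adjusted p = 0.000252). POC1 (Vocar.0009s0060), a WD-repeat protein of the centriole wall that stands in both the core and the POC group, showed the largest core change toward gonidia. It had 33 and 26 reads in gonidia, compared with 1 and 1 in somatic cells, a 33.2-fold ratio (8.78 to 280) and a change of -4.88 on the log2 scale (SE 1.00, adjusted p = 1.87e-06). The Cep70-related CRC70 (Vocar.0004s0221) likewise had 14 and 14 reads in gonidia and 0 and 3 in somatic cells and was 10.5-fold higher in gonidia (3.24 to 53.9).

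The minor tubulins, of which delta and epsilon tubulin are counted among the 9 genes above, were also higher in gonidia. Delta tubulin (UNI3/TUD1, Vocar.0011s0165) and epsilon tubulin (BLD2/TUE1, Vocar.0015s0161) are needed for the triplet microtubules of the basal body, while gamma tubulin (TUG1, Vocar.0001s0264) nucleates microtubules in general. Delta tubulin had 35 and 28 reads in gonidia, compared with 2 and 7 in somatic cells, or 40.6 ± 5.17 against 4.90 ± 3.23 normalized counts (SD, n = 2), and changed by -2.95 (SE 0.60, adjusted p = 4.35e-05 in the edgeR fit). Epsilon tubulin had 54 and 56 reads in gonidia and 7 and 17 in somatic cells and fell by 2.37 on the log2 scale from gonidia to somatic cells (SE 0.43, adjusted p = 3.28e-05). Gamma tubulin had 211 and 179 reads in gonidia, compared with 57 and 103 in somatic cells, and was gonidial-biased at -1.47 (SE 0.28), but at -0.88 (TMM normalization) and -0.76 (DESeq2's size factors), where 38.0% and 36.2% of all tested genes were gonidial, it no longer reached 2-fold. None of the 3 tubulin genes had overlapping values between cell-types, which was also so for 90.6% of all tested genes.

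The remaining gonidial core genes were VFL1, ASQ2 and POC5. VFL1 (Vocar.0065s0013), whose loss in *C. reinhardtii* gives variable numbers of flagella, had 81 and 55 reads in gonidia and 14 and 19 in somatic cells (log2 fold change -2.20, SE 0.39). ASQ2 (Vocar.0009s0148), listed as required for the link between mother and daughter centrioles, had 254 and 221 reads in gonidia and 41 and 121 in somatic cells (log2 fold change -1.77, SE 0.32). POC5 (Vocar.0005s0174), a centrin-binding protein, had 21 and 5 reads in gonidia, compared with 4 and 3 in somatic cells. Its call (log2 fold change -2.01, adjusted p = 0.0154) rested on gonidial replicate 1, without which the log2 fold change was -0.68 and the adjusted p was 0.608.

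CEP76, whose human homolog limits centriole duplication, had 68 and 41 reads in gonidia and 25 and 41 in somatic cells and was constitutive at -0.90 (adjusted p = 0.0304). It passed 2-fold without gonidial replicate 2 (-1.19) and without somatic replicate 2 (-1.10). The SF-assemblin gene SFA1, which encodes a fibre protein of the flagellar roots, gave -0.84 (adjusted p = 0.0538) from 32, 34, 20 and 21 reads in gonidia 1, gonidia 2, somatic 1 and somatic 2. The core gonidial calls depended on the test. When DESeq2 was asked for a change of more than 2-fold, 2 of the 10 core genes remained gonidial, POC1 and delta tubulin, while the same test called 30.0% of all tested genes gonidial. edgeR's test against 2-fold left 9, against 40.7% of all tested genes, and the DESeq2 Wald test likewise 9, against 43.8%.

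**Figure D3:**
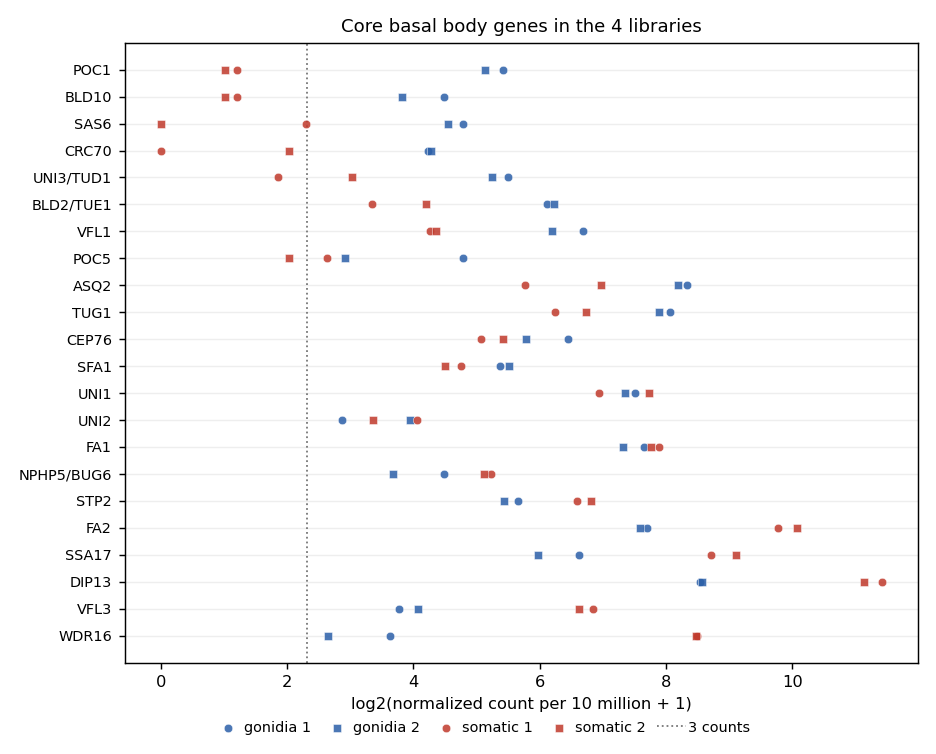
Log2 of the normalized count plus 1 (horizontal axis), of 22 core basal body genes in the 2 gonidial (blue) and 2 somatic (red) libraries, ordered by fold change, with the largest value that 3 counts take as a dotted line. Genes from POC1 down to SFA1 had higher values in each gonidial library than in any somatic one, and those from FA1 to WDR16 the reverse.

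Of the 23 tested core genes, 8 were somatic, and they include FA2, SSA17, DIP13, VFL3 and WDR16. FA2 (Vocar.0011s0057), a NIMA-family kinase needed in *C. reinhardtii* to sever flagella from the cell, had 163 and 145 reads in gonidia, compared with 671 and 1055 in somatic cells, or 199 ± 10.5 against 979 ± 145 normalized counts (SD, n = 2). Its log2 fold change was 2.30 (SE 0.24, adjusted p = 7.65e-08). Its partner FA1 (Vocar.0002s0679) had 158 and 121 reads in gonidia and 180 and 212 in somatic cells, and its change of 0.33 (SE 0.26) did not pass the test (adjusted p = 0.254), although with DESeq2's size factors it was somatic at 1.05. VFL3 (Vocar.0002s0080), which orients basal bodies and acts in templated centriole assembly, had 10 and 12 reads in gonidia and 87 and 95 in somatic cells. With a log2 fold change of 2.88 (SE 0.41, adjusted p = 1.34e-06) it was somatic-specific, opposite to the gonidial VFL1.

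The CEP164 homolog SSA17 (Vocar.0026s0085), of a family that docks mother centrioles to the membrane in human cells, had 77 and 47 reads in gonidia, compared with 321 and 535 in somatic cells (log2 fold change 2.60, SE 0.29). DIP13 (Vocar.0024s0043), a microtubule-associated protein that is induced when flagella regrow in *C. reinhardtii*, stands in both the core and the BUG group and had 294 and 289 reads in gonidia, compared with 2106 and 2189 in somatic cells (log2 fold change 2.73, SE 0.22). The largest core change toward somatic cells was that of the WD-repeat gene WDR16 (Vocar.0004s0391), with 9 and 4 reads in gonidia and 276 and 346 in somatic cells (log2 fold change 5.39, SE 0.46, adjusted p = 1.88e-10 with edgeR). STP2 was somatic-biased at 1.18 (adjusted p = 0.00259) from 39 and 32 reads in gonidia and 73 and 109 in somatic cells, and without gonidial replicate 2 its adjusted p was 0.0513. Apart from STP2 and NPHP5, the core somatic calls held without any 1 library.

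UNI1 and UNI2, whose mutants in *C. reinhardtii* often assemble a single flagellum, were constitutive. UNI1 (Vocar.0004s0236) had 144 and 123 reads in gonidia and 93 and 206 in somatic cells, so that the somatic libraries lay on either side of the gonidial ones (log2 fold change -0.04, SE 0.30). UNI2 (Vocar.0030s0154) had 5 and 11 reads in gonidia and 12 and 9 in somatic cells, and its change of 0.23 (SE 0.59) did not pass the test (adjusted p = 0.721).

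Genes named after nephronophthisis, a human kidney disease of ciliary proteins, include NPHP4 and NPHP5, which were both somatic-biased. NPHP4 (Vocar.0028s0072), which is also POC10 and a TZ gene, had 166 and 115 reads in gonidia, compared with 298 and 395 in somatic cells, and a change of 1.13 (SE 0.26, adjusted p = 0.000531). NPHP5 (Vocar.0013s0057), which is also BUG6, had 17 and 9 reads in gonidia, compared with 28 and 33 in somatic cells, and a change of 1.06 (SE 0.45, adjusted p = 0.0325). Both lost their calls without gonidial replicate 2, where the changes were 0.92 and 0.71.

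BUG genes mostly shared 1 direction, although their fold changes spread widely (quartiles 2.29 and 7.04). Each somatic library exceeded each gonidial one for 26 of 32 genes, against 33.4% of all tested genes, and 24 of these were somatic-specific, against 16.9%. The largest change was that of BUG10 (Vocar.0029s0081), with 18 and 13 reads in gonidia and 12138 and 22056 in somatic cells, or 19.95 ± 3.97 against 19240 ± 4780 normalized counts (SD, n = 2). Its log2 fold change of 9.90 (SE 0.32, adjusted p = 1.36e-14 with edgeR) corresponds to 955-fold.

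The next 4 changes ranged from 296-fold to 623-fold. BUG16 (Vocar.0043s0073) had 6 and 3 reads in gonidia, compared with 2676 and 3831 in somatic cells (log2 fold change 9.28, SE 0.47). BUG2 (Vocar.0002s0489) had 26 and 15 against 7795 and 14373 (8.87, SE 0.31). BUG13 (Vocar.0005s0328) had 23 and 18 against 5383 and 9821 (8.33, SE 0.30), and BUG8 (Vocar.0011s0349) had 5 and 4 against 1129 and 1996 (8.21, SE 0.49). None of these 4 genes carries a protein name in the study's list.

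Among the named BUG genes, the tektin gene TEK1 (Vocar.0039s0062), which encodes a filament protein associated with doublet microtubules, had 66 and 64 reads in gonidia and 10701 and 14651 in somatic cells, with a log2 fold change of 7.43 (SE 0.22). BUG3 (Vocar.0028s0056; 25 and 9 reads against 2748 and 3533) and BUG31 (Vocar.0001s1194; 28 and 15 against 2326 and 4719), the latter listed as a homolog of NESG1, gave 7.35 and 7.14. The MNS1 homolog BUG32 gave 5.42 (SE 0.28) and the nucleoside diphosphate kinase BUG5 5.85 (SE 0.25).

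BUG11 encodes the homolog of OFD1, a protein of the distal centriole in human cells, and had 29 and 22 reads in gonidia and 140 and 181 in somatic cells. Its change of 2.48 (SE 0.32, adjusted p = 7.14e-07) was the smallest among the 24 somatic-specific BUG genes. BUG24 (21 and 27 reads in gonidia, 90 and 88 in somatic cells) and NPHP5/BUG6 were the only somatic-biased members of the group.

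The 6 BUG genes that were not somatic include several with roles outside the flagellum. BUG26, listed as the ATP synthase subunit ASA8, was the only gonidial BUG gene, with 6308 and 7916 reads in gonidia, compared with 3380 and 2965 in somatic cells (log2 fold change -1.30, SE 0.22, adjusted p = 3.11e-05), but it did not reach 2-fold with TMM normalization (-0.70) or DESeq2's size factors (-0.59). The cytosolic chaperonin subunit CCT3 had 1428 and 1046 reads in gonidia, compared with 772 and 1025 in somatic cells, and was constitutive (-0.63, adjusted p = 0.0157, but 0.09 with DESeq2's size factors). The DnaJ-type chaperone DNJ1 (BUG7) had 2255, 1882, 2134 and 2672 reads in gonidia 1, gonidia 2, somatic 1 and somatic 2, and its libraries overlapped (0.05, SE 0.21). BUG18 (9 and 16 reads in gonidia, 10 and 19 in somatic cells) and BUG27 (38 and 32, 39 and 28) also overlapped, while RPGRIPL1/BUG28 is described with the TZ genes.

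**Figure D4:**
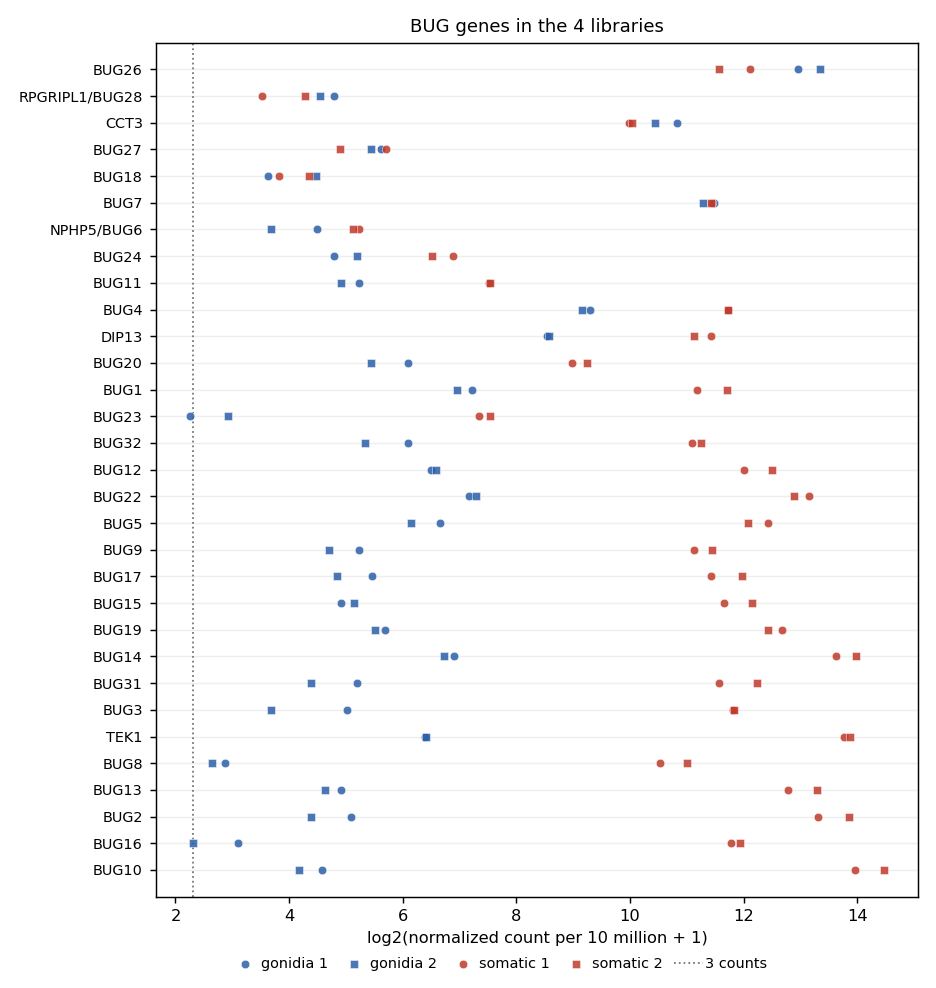
Log2 of the normalized count plus 1 (horizontal axis), of 31 BUG genes in the 2 gonidial (blue) and 2 somatic (red) libraries, ordered by fold change, with the largest value that 3 counts take as a dotted line. From NPHP5/BUG6 downward, each of 25 genes had its higher values in the somatic libraries, without overlap.

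The 5 loci set aside because the list also names them among flagellar genes were each somatic-specific, as were 16.9% of all tested genes. The centrin gene VFL2/CEN1, which encodes a calcium-binding protein of basal body fibres and of the axoneme, had 96 and 110 reads in gonidia, compared with 778 and 572 in somatic cells at Vocar.0012s0203 (log2 fold change 2.59, SE 0.28). Its second locus, Vocar.0050s0015, had 12 and 13 against 157 and 179 (3.58). The others were FAP134 (6.58), Rib43a (7.51) and Rib72 (8.46). With these loci kept in, the core group held 11 somatic genes and the BUG group 28, where 26.0% of all tested genes were somatic.

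POC genes went in both directions, from gonidial-specific genes to the somatic-specific POC15 (log2 fold change 5.86), with many constitutive genes between. The gonidial members were POC1, POC4, POC5, POC9, POC11 and POC17. POC4 (Vocar.0040s0044), listed as similar to the centrin-binding protein SFI1, had 8 and 10 reads in gonidia, compared with 0 and 0 in somatic cells. Set against 3 counts per somatic library, it was at least 3.33-fold higher in gonidia (adjusted p = 0.000253). POC9 (Vocar.0050s0057), listed as similar to the doublet microtubule protein Rib72, had 110 and 90 reads in gonidia, compared with 1 and 5 in somatic cells, and changed by -5.17 on the log2 scale (SE 0.65, adjusted p = 1.22e-08). This is opposite to Rib72 itself, which changed by 8.46. POC11 (Vocar.0033s0121) had 24 and 18 reads in gonidia and 1 and 1 in somatic cells, a 23.6-fold ratio (6.14 to 201).

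The deepest of the gonidial POC genes was POC17 (Vocar.0004s0447), with 2065 and 1771 reads in gonidia, compared with 128 and 263 in somatic cells, or 2474 ± 194 against 218 ± 72.5 normalized counts (SD, n = 2). Its log2 fold change was -3.49 (SE 0.25, adjusted p = 5.15e-10), and it stayed gonidial under every alternative that was run. In the DESeq2 test against a 2-fold change, 5 of the 6 gonidial POC genes remained, the exception being POC5.

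Among the 4 somatic POC genes 1 was specific. POC15 (Vocar.0014s0277), which encodes an EF-hand protein, had 3 and 1 reads in gonidia, compared with 112 and 167 in somatic cells, and a change of 5.86 (SE 0.74, adjusted p = 2.46e-09). POC6 had 29 and 28 reads in gonidia, compared with 89 and 83 in somatic cells (1.44, adjusted p = 0.000728). POC2 had 13 and 7 against 17 and 42 (1.36, adjusted p = 0.016), and its call was lost without gonidial replicate 2 (adjusted p = 0.176) and without somatic replicate 2 (0.195). NPHP4/POC10 was the fourth. The number of somatic POC genes was 1, POC15, in the DESeq2 test against 2-fold, which called 18.2% of all tested genes somatic.

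The 10 constitutive POC genes included 5 with an adjusted p-value under 0.05. The 14-3-3 genes POC8 (Vocar.0002s0678) and POC14 (Vocar.0001s1177), which encode adaptors that bind phosphorylated proteins, had 5098 and 5602 against 10000 and 11926 reads and 6098 and 6056 against 8133 and 11656 reads in gonidia and somatic cells, with changes of 0.87 (SE 0.20) and 0.52 (SE 0.20). The lipid-binding UNC119 homolog POC7 gave 0.85 and the ubiquitin-activating enzyme UBA1 (POC20) 0.53. With TMM normalization these 4 passed 2-fold, at 1.47, 1.12, 1.44 and 1.13, so that the POC group then held 5 gonidial and 8 somatic genes in place of 6 and 4, where 38.0% of all tested genes were gonidial and 32.2% somatic. DESeq2's size factors gave the same numbers for the group, where the shares of all tested genes were 36.2% and 33.6%. POC13 (FAP186) gave -0.88 (adjusted p = 0.00127) and reached -1.03 without somatic replicate 2. POC16, POC19 and POC21 (AGG3) lay between -0.08 and 0.17, with overlapping libraries.

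**Figure D5:**
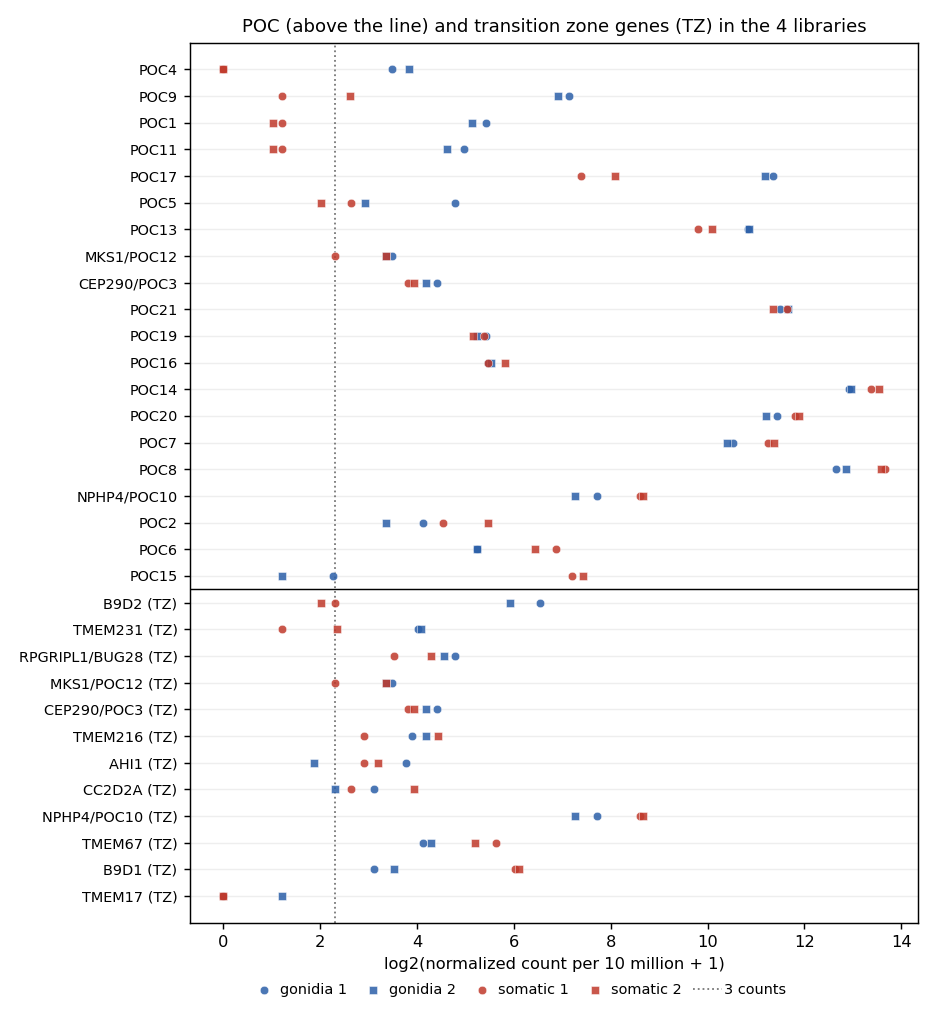
Log2 of the normalized count plus 1 (horizontal axis), of the 20 POC genes (above the line) and the 12 TZ genes (below it) in the 2 gonidial (blue) and 2 somatic (red) libraries, with the largest value that 3 counts take as a dotted line. Of the genes above 5-fold, POC4 to POC17, B9D2 and TMEM231 were separated toward gonidia, and POC15 and B9D1 toward somatic cells. With smaller changes included, 9 POC and 5 TZ genes had no overlap toward gonidia, against 57.2% of all tested genes. Toward somatic cells these were 8 and 3, against 33.4%.

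TZ genes had no common direction. Of the MKS module, the membrane complex of the gate that is named for Meckel syndrome, 8 of 9 genes were tested, 2 were gonidial, 2 somatic and 4 constitutive. Among all tested genes 46.7% were gonidial and 26.0% somatic. The B9 domain proteins B9D1 and B9D2, which form a complex with MKS1 in animal cells, went in opposite directions. B9D2 (Vocar.0035s0113) had 73 and 45 reads in gonidia, compared with 3 and 3 in somatic cells (log2 fold change -4.40, SE 0.66, adjusted p = 2.55e-07), whereas B9D1 (Vocar.0018s0214) had 6 and 8 reads in gonidia, compared with 49 and 66 in somatic cells (2.84, SE 0.48, adjusted p = 7.45e-06). Both kept their calls under every alternative that was run. None of these tested whether reads of the neighbouring axonemal gene IDA7, with 5145 and 6296 reads in somatic cells, were counted on B9D1. MKS1 (Vocar.0031s0027), also POC12, had 8, 7, 3 and 9 reads in gonidia 1, gonidia 2, somatic 1 and somatic 2 and did not pass the test (-0.49, SE 0.65, adjusted p = 0.479).

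Among the transmembrane members, TMEM231 (Vocar.0001s1268) was gonidial with 12 and 12 reads in gonidia, compared with 1 and 4 in somatic cells (log2 fold change -2.38, adjusted p = 0.00362), and TMEM67 (Vocar.0001s0050) was somatic with 13 and 14 against 37 and 35 (1.25, adjusted p = 0.01). DESeq2's Wald test called neither, and TMEM67 lost its call without gonidial replicate 1 (adjusted p = 0.0976) or 2 (0.0603). NPHP4, the other somatic-biased TZ gene, was at 0.92 without gonidial replicate 2. TMEM216 had 11 and 13 reads in gonidia and 5 and 20 in somatic cells, and TMEM17 a single read in all 4 libraries. CC2D2A (6 and 3 reads in gonidia, 4 and 14 in somatic cells) and AHI1 (10 and 2, 5 and 8) overlapped between cell-types.

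CEP290 and RPGRIPL1, which encode TZ scaffold proteins, were constitutive at low depth. CEP290 (Vocar.0040s0104), also POC3, which links microtubules to the membrane, had 16 and 13 reads in gonidia and 10 and 14 in somatic cells (log2 fold change -0.44, SE 0.48). RPGRIPL1 (Vocar.0022s0202), also BUG28, had 21 and 17 reads in gonidia and 8 and 18 in somatic cells (-0.72, SE 0.47). Neither passed the test (adjusted p = 0.404 and 0.159).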

How the data were processed

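The data are single-end RNA-seq libraries, 2 of gonidia and 2 of somatic cells. The authors deposited raw read counts for each gene model, having trimmed the reads (Trimmomatic), aligned them to the V2 assembly (STAR) and kept those with a unique position (HTSeq). Reads shared by near-identical loci are thus not counted. Whether counting used strand is not given in the sources used here.

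For library sizes, the 45 genes with the most reads in each library (the top 0.3%) were left out of the sum, following the study. Genes without any read were dropped, then the 10% lowest by mean normalized count, and 13350 remained. These were tested with edgeR 4.0.16 (R 4.3.3, quasi-likelihood test, cell-type as the only term) with Benjamini-Hochberg adjustment over all of them. Standard errors were computed from the fitted means and the quasi-likelihood dispersion. The residual degrees of freedom were 2 and the prior degrees of freedom 17.1. DESeq2 1.42.0 was run as an alternative. Common dispersion was 0.0316. Where a cell-type had no read, a ratio is a lower bound against 3 counts per library. Where it had 1 to 3 reads, the ratio of the summed counts, scaled by the summed library sizes, is given with an exact binomial interval. For medians of single library pairs and for ratios between replicates, 0.5 normalized counts were added.

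Alternatives were other scalings (TMM, DESeq2's size factors, plain totals), tests (DESeq2, and DESeq2 and glmTreat against 2-fold), filters (none, filterByExpr, at least 20 counts), a replicate term, loci counted once or dual-listed loci kept in, and each library left out in turn. There 1 cell-type has a single library, which is assumed to vary like the others. The steps were tested on simulated data. There only a small share of genes differed, about equally in both directions, unlike in these data. The simulation therefore does not check the scaling or the share of calls.

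Named genes were all called core, POC and TZ members, all BUG members that were not somatic, the 8 largest somatic BUG changes, loci in more than 1 group, tubulin, flagellar autonomy and nephronophthisis genes, members removed by the filter and loci set aside. Some of these are counted in their groups but not reported here by name. Other genes named, such as BUG5, BUG11, BUG24 and BUG32, were chosen after their values were seen. Members, role groups and lists were chosen with earlier results of these data known. Gene names were taken from the study's list, and no sequences or gene lengths were used.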

Additional observations from a re-analysis of the deposited data

How the results depend on the processing

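None of the 55 called members changed direction under any alternative that was run, and 38 of them kept their call in every alternative in which they were tested. With DESeq2's test against a 2-fold change, 10 gonidial and 7 somatic members lost their calls. It left 2 core gonidial genes, 0 gonidial BUG genes, 1 somatic POC gene, and 1 gonidial and 1 somatic TZ gene. The same test called 30.0% of all tested genes gonidial and 18.2% somatic. The DESeq2 Wald test, which called 43.8% of all tested genes gonidial, left 1 gonidial TZ gene. With glmTreat, where 22.6% of all tested genes were somatic, 1 somatic POC and 1 somatic TZ gene remained. Among all tested genes, TMM normalization and DESeq2's size factors called 38.0% and 36.2% gonidial and 32.2% and 33.6% somatic. Both scalings gave 0 gonidial BUG and 8 somatic POC genes. They moved the medians to -0.25 and -0.14 (core), 6.36 and 6.48 (BUG), 0.52 and 0.64 (POC) and 0.44 and 0.56 (TZ), which follows from the shift of all genes. The core median was -0.44 without a filter and with filterByExpr. The POC median was 0.04 with plain totals, 0.17 with filterByExpr and 0.05 with each locus counted once.

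Without 1 library in turn, core genes numbered 9 to 11 gonidial and 6 to 8 somatic, BUG genes 1 gonidial and 25 to 26 somatic, POC genes 5 to 7 gonidial and 2 to 4 somatic, and TZ genes 2 gonidial and 1 to 3 somatic, and the medians ranged from -0.77 to -0.53 (core), 5.66 to 5.79 (BUG), -0.12 to 0.01 (POC) and -0.55 to 0.08 (TZ). The low counts of somatic POC and TZ genes came without gonidial replicate 2 (2 and 1).

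Constitutive genes changed sign. Under TMM scaling and under DESeq2's size factors, respectively, the log2 fold change became 0.08 and 0.20 for MKS1, 0.44 and 0.56 for TMEM216, 0.15 and 0.27 for CEP290, 0.53 and 0.65 for AHI1, 0.54 and 0.67 for UNI1, 0.40 and 0.51 for BUG27, 0.53 and 0.64 for POC19 and 0.52 and 0.63 for POC21, and with the latter 0.09 for CCT3. Plain totals gave 0.07 for AHI1, 0.09 for UNI1, 0.05 for POC19 and 0.04 for POC21.
Without 1 library in turn, it ranged from -1.23 to 0.40 for TMEM216, -0.15 to 1.32 for CC2D2A, -0.75 to 1.44 for AHI1, -0.24 to 0.94 for UNI2, -0.50 to 0.29 for UNI1, -0.04 to 0.15 for BUG7, -0.36 to 0.53 for BUG18, -0.65 to 0.17 for BUG27, -0.03 to 0.33 for POC16, -0.17 to 0.04 for POC19 and -0.24 to 0.06 for POC21.

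The replicate number as a block left every count of calls in the 4 groups as it was, with medians of -0.84 (core), 5.76 (BUG), -0.08 (POC) and -0.25 (TZ), and 0.06 for AHI1. Replicates of the cell-types share only a number, since each culture gave a single cell-type, and their deviations had a correlation of -0.026 across genes. Depth limits the TZ, POC and core genes most, 4 members having under 10 reads in every library.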

Other observations

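Members with consecutive locus numbers were looked for among the loci of the study's list, after the values had been seen. B9D1 (Vocar.0018s0214) is followed by IDA7 (Vocar.0018s0215), an intermediate chain of an axonemal inner dynein arm, which had 62 and 27 reads in gonidia against 5145 and 6296 in somatic cells (log2 fold change 6.84). FA1 (Vocar.0002s0679) is preceded by the 14-3-3 gene POC8 (Vocar.0002s0678), and these were constitutive at 0.33 and 0.87. Whether reads of one gene were counted on its neighbour was not tested.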
